A study of Mus musculus with 87 samples.

Results

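The 8 genes described here encode the cohesin subunits that are used in meiosis (Stag3, Smc1b and Rec8) and proteins of the synaptonemal complex (Syce1, Sycp1, Sycp2, Sycp3 and Hormad1). They were taken by symbol, and all 8 were found among the 25277 genes listed in each of 10 tables of RNA-seq read counts from mouse. The tables hold 87 libraries in 31 groups. Androgenetic haploid embryonic stem cells, whose genome comes from the father alone, were sequenced in 3 Dnmt genotypes. Embryos and tissues came from semi-cloned mice, for which such a cell stands in for the sperm at fertilisation.

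The haploid cells, all of 1 cell type label (AG-haESC), were STOP (n = 2), TKO (n = 3) and WT (n = 3). For the genotypes pIR and pWT there were 4 libraries each of 2C embryos and of blastocysts, and morulae gave 4 pIR and 3 pWT libraries. Fetal tissues of E18.5 came in batches: batch 1 compares pTKO with pWT (n = 2 each) in 5 organs (lung, liver, kidney, heart and brain), and batch 2 compares pIR with pWT (n = 4 each) in liver and heart. At P1, the first day after birth, heart, kidney, liver and lung were taken from pIR (n = 2) and pWT (n = 3). All labels are genotypes. What STOP, pIR and the prefix p stand for, and whether TKO lines are single clones, is not stated in the sources used here. Whether the libraries in a group stem from different animals or cultures is not stated, and p-values measure the spread between these libraries, which may be technical. Nor is it stated whether different tissues come from the same animals. Fits over several tissues treat their libraries as independent.

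Cohesin is a protein ring that holds sister chromatids together. In dividing body cells its variable subunits are Smc1a, Rad21 and Stag1 or Stag2, and in meiosis Smc1b, Rec8 and Stag3 take their places. On this cohesin core the chromosome axis is built from Sycp2, Sycp3 and Hormad1, and Sycp1 with the central element protein Syce1 then joins the axes of homologous chromosomes like the rungs of a ladder. In mice, genes of this kind are kept silent outside the germ line, several of them through methylation of CpG-rich promoters and through a repressor complex, PRC1.6, that reaches DNA with partners binding E-box and E2F motifs.

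The promoters of Stag3, Smc1b, Syce1 and Hormad1 are printed here because Stag3, Smc1b and Hormad1 were called higher in both mutant haploid genotypes, and Stag3 and Syce1 lay higher in all 5 pTKO tissues. Each is the 250 bases before the annotated transcription start, 5′ to 3′ on the gene's strand, from RefSeq on build GRCm38.p6, with CpG dinucleotides in capitals.
Stag3, chr5:138280259-138280508, plus strand: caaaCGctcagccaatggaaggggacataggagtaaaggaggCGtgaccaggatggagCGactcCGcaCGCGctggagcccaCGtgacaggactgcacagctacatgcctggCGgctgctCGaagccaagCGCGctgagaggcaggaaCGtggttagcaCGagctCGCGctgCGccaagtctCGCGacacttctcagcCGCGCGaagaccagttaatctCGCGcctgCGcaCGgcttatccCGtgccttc
Smc1b, chr15:85131958-85132207, minus strand: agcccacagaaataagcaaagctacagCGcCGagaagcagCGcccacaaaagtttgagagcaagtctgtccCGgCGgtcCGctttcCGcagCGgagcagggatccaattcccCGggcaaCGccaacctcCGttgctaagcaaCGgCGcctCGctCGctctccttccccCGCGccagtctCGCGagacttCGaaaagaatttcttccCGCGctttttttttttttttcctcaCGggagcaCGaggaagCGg
Syce1, chr7:140787855-140788104, minus strand: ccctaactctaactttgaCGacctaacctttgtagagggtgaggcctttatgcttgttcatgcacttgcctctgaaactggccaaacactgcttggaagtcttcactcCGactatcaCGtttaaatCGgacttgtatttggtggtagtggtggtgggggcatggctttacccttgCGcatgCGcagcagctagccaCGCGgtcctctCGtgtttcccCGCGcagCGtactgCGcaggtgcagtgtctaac
Hormad1, chr3:95559427-95559676, plus strand: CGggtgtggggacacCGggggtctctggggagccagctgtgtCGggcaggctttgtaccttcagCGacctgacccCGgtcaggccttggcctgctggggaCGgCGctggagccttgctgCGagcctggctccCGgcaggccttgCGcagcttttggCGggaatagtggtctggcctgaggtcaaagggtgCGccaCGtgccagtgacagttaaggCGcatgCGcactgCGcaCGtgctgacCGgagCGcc

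Stag3 held 26 CpG in the printed stretch, Smc1b 25, Hormad1 19 and Syce1 13. Over the whole window of 300 bases (250 before the start and 50 after it), the 8 genes held 30 (Stag3), 29 (Smc1b), 24 (Hormad1), 21 (Sycp1), 18 (Rec8), 15 (Sycp3), 14 (Syce1) and 10 (Sycp2), against a median of 7 over 32851 windows of this length. At least as many as Stag3 occurred in 11.7% of all windows, and at least as many as Sycp2 in 43.5%. The E-box CACGTG, which reads alike on both strands, lay in Stag3 at -170, in Sycp1 at -94, in Sycp3 at -64 and -43 and in Hormad1 at -57 and -20, counted from the start, and is present in 7.15% of all windows. The E2F-type motif CCCGCC, or GGCGGG on the other strand, lay in Stag3 at 26 after the start, in Sycp2 at -51, in Sycp3 at -94 and -31 and in Hormad1 at -96, and is present in 35.3% of windows. Neither string of letters was found in the windows of Smc1b, Rec8 and Syce1. Other forms of these motifs were not searched for. RefSeq listed 2 nearly identical starts for Hormad1, of which the first is given.

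Levels are CPM, the count of a gene scaled to a common library total, and levels of different genes are compared only after division by exon length (CPM per kb). The genes lie apart in the genome (mm10): Stag3 at chr5:138280240-138312393, Smc1b at chr15:85064689-85131964, Rec8 at chr14:55618037-55625395, Syce1 at chr7:140777229-140787852, Sycp1 at chr3:102818499-102936100, Sycp2 at chr2:178345293-178407685, Sycp3 at chr10:88459569-88473236 and Hormad1 at chr3:95559677-95587671. Library totals ran from 6136789 to 37396693 counts, with the lowest among 2C embryos. In tissues most of these genes stood below 10 CPM, so that several were under the limit for testing. Tests are edgeR's quasi-likelihood test, and adjusted p means Benjamini-Hochberg over all genes tested in that comparison, with 0.05 as the threshold. In bulk libraries, fewer cells that express a gene and less RNA per cell cannot be told apart.

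In pWT and WT samples the family did not behave as one unit. Sycp3, a structural protein of the axis, stood far above the others in early embryos, at 603 CPM per kb in 2C embryos, 254 in morulae and 215 at the blastocyst stage, while Hormad1 followed at 31.9 in 2C embryos and Sycp1 at 15.02. In WT haploid cells the levels were close together: Syce1 had 11.4 CPM per kb, 5 others lay between 4.86 and 5.94, Smc1b had 1.11 and Sycp2 had 0. In pWT tissues at E18.5 the highest levels were those of Rec8 and Sycp3, with 8.76 and 5.35 CPM per kb in lung and 6.07 and 7.11 in kidney of batch 1, and of Sycp3 in heart of batch 2 with 12.4. Stag3 had 3.73 CPM per kb in pWT brain and at most 0.811 in the other pWT groups of E18.5, and Hormad1 was at most 0.0790 in every pWT group of E18.5. Between the 5 pWT tissues of batch 1, 6 of 7 tested genes differed, all except Sycp1 (edgeR adjusted p = 0.387), where 85.2% of all genes did. Between the 4 pWT tissues at P1 all 4 tested genes differed, where 94.7% of all genes did.

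The Dnmt genes were read first, as a check of the labels. Dnmt1, the maintenance DNA methyltransferase, averaged 587 ± 20.4 CPM in STOP cells (SD, n = 2), 71.1 ± 2.69 CPM in TKO cells (SD, n = 3) and 422 ± 3.36 CPM in WT cells (SD, n = 3). Dnmt3a and Dnmt3b, the de novo enzymes, averaged 11.3 and 24.1 CPM in TKO cells, against 68.8 and 136 CPM in WT cells. All 3 were lower in TKO cells, and since Dnmt1 RNA was higher in STOP cells than in WT cells, the RNA does not check that label. Of 4 Dnmt genes tested, 1 was called higher and 1 lower in STOP over WT, where 13.8% of all genes were called higher and 9.37% lower. In E18.5 tissues of batch 1 Dnmt1 averaged 144 CPM in pTKO brain against 246 in pWT brain (log2 fold change -0.79 ± 0.06 SE, edgeR adjusted p = 4.26e-05) and 79.1 CPM in pTKO heart against 140 in pWT heart (-0.91 ± 0.20, edgeR adjusted p = 0.0351).

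Stag3, Smc1b and Hormad1 were higher in haploid cells of both mutant genotypes than in WT cells, while genes for the bridge between the axes, Syce1 and Sycp1, were not called. Stag3, the meiotic STAG subunit, had 68.9 and 84.0 CPM in STOP libraries, 80.9, 66.1 and 47.3 CPM in TKO libraries and 32.4, 37.9 and 31.8 CPM in WT libraries. Every mutant library lay above every WT library, as 6414 of 14959 genes did in STOP and 2863 in TKO, and the log2 fold change was 1.07 ± 0.18 (SE) in STOP over WT (edgeR adjusted p = 0.00739) and 0.87 ± 0.16 in TKO over WT (edgeR adjusted p = 0.0103). Smc1b, the meiotic SMC subunit, had 18.6 and 32.0 CPM in STOP libraries, 16.7, 13.5 and 13.9 CPM in TKO libraries and 2.92, 5.28 and 5.21 CPM in WT libraries. The groups did not overlap here either, and the log2 fold change was 2.39 ± 0.29 in STOP (edgeR adjusted p = 0.00299) and 1.66 ± 0.27 in TKO (edgeR adjusted p = 0.00645). Rec8, the meiotic kleisin that closes the ring, had 28.1 and 33.7 CPM in STOP libraries, 29.1, 27.1 and 16.7 CPM in TKO libraries and 16.9, 16.1 and 14.0 CPM in WT libraries. STOP stood wholly above WT, like 42.9% of all genes (0.88 ± 0.20 on the log2 scale, edgeR adjusted p = 0.019), whereas TKO replicate 3 lay inside the WT range (0.58 ± 0.18, edgeR adjusted p = 0.0645).

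Among the axis proteins, Hormad1, which marks axes that have not yet paired, had 24.8 and 34.5 CPM in STOP libraries, 15.6, 26.4 and 38.2 CPM in TKO libraries and 6.32, 10.8 and 9.49 CPM in WT libraries. It was higher in both genotypes without overlap, by 1.64 ± 0.38 on the log2 scale in STOP (edgeR adjusted p = 0.0202) and 1.57 ± 0.35 in TKO (edgeR adjusted p = 0.0216). Sycp3 went the other way: it had 4.72 and 5.96 CPM in STOP libraries, 3.84, 3.23 and 3.60 CPM in TKO libraries and 6.68, 7.97 and 4.82 CPM in WT libraries. It fell in TKO cells (log2 fold change -0.91 ± 0.24, edgeR adjusted p = 0.0347), and in STOP cells its range overlapped that of WT. Sycp2, the partner of Sycp3 in the axis, had 0 counts in all 8 libraries, which allows up to 0.123 to 0.179 CPM per library (3 counts, counting error only). Syce1 had 15.5 and 15.8 CPM in STOP libraries, 8.54, 12.5 and 21.3 CPM in TKO libraries and 14.9, 17.5 and 17.4 CPM in WT libraries. For Sycp1, which forms the rungs of the complex, the values were 12.9 and 18.0 CPM in STOP, 6.11, 8.69 and 26.2 CPM in TKO and 14.3, 18.49 and 19.0 CPM in WT. In both genes TKO replicate 3 was the highest of all 8 libraries and TKO replicate 1 the lowest.

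**Figure D1:**
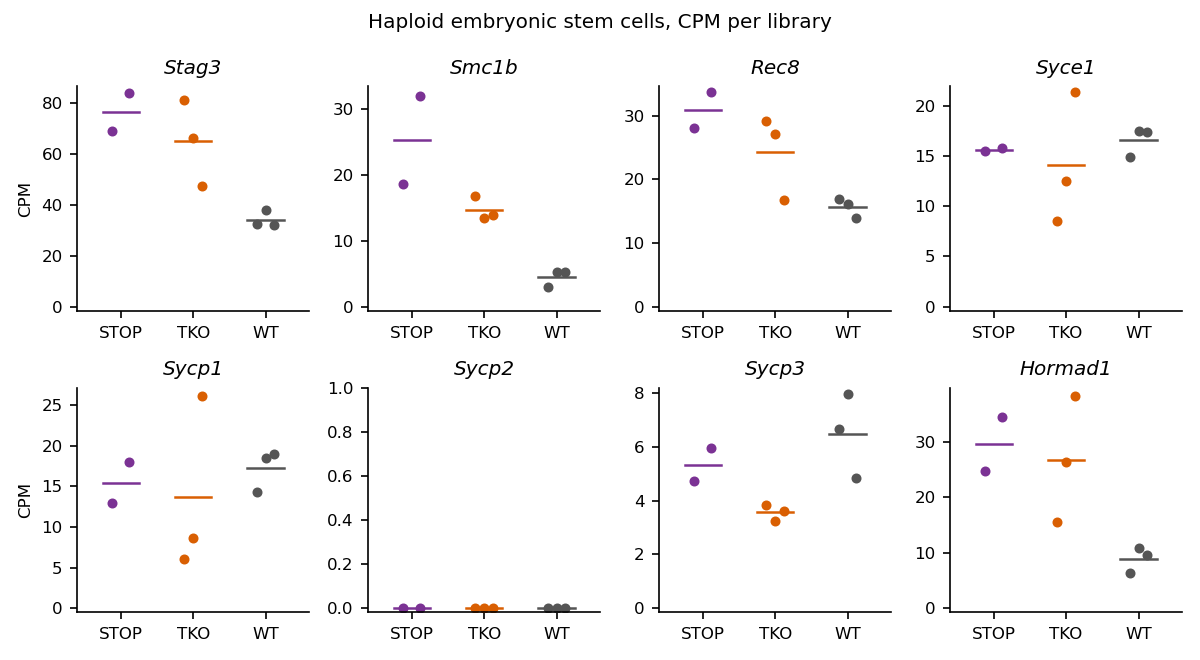
CPM of each of the 8 genes (y axis, 1 panel a gene) in every haploid library of STOP, TKO and WT cells (x axis), with a point per library and a bar at the group mean. Stag3, Smc1b and Hormad1 lie higher in every STOP and TKO library than in any WT library, Sycp3 lies lower in TKO, and Sycp2 is at 0 throughout.

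In TKO over WT, 3 of the 7 genes tested were called higher and 1 lower, where 9.83% of all genes were called higher and 4.72% lower, and the median log2 fold change was 0.58 over the 7 genes and 0.01 over all genes. In STOP over WT, 4 of 7 were called higher and 0 lower, where 13.8% of all genes were called higher, with a median of 0.88 over the 7 genes. Both comparisons use the same WT libraries. Smc1b kept its call without any 1 library in both comparisons (edgeR adjusted p up to 0.0468). Stag3 lost it without WT 1 or WT 3 in TKO (0.0574 and 0.0591) and without STOP 2 in STOP (0.0904). Hormad1 lost it in TKO without WT 1, 2 or 3 or TKO 2 (0.0601 to 0.0947), and Sycp3 without WT 1, 2 or 3 or TKO 1 or 2 (0.0519 to 0.129). Rec8 and Hormad1 in STOP lost it without any 1 library (0.0571 to 0.17 and 0.0502 to 0.162). Without TKO 3, all 7 tested genes were called in TKO, with Rec8 higher and Syce1 and Sycp1 lower. That fit called 46.8% of all genes, against 14.6% with all libraries. Set against TKO directly, STOP cells gave 0 called members by edgeR, where 0.0401% of all genes were called. By unadjusted p under 0.05 there was 1, where 439 of 14959 genes passed that, Smc1b (log2 fold change 0.73 ± 0.28, edgeR adjusted p = 0.902), and DESeq2 called 0.

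Other meiotic genes in haploid cells gave calls in both directions. Over all genes, 13.8% were called higher and 9.37% lower in STOP, and 9.83% higher and 4.72% lower in TKO. Of 10 tested further genes of the synaptonemal complex, axis and telomere attachment, 3 were higher in TKO and 3 in STOP, with 0 lower: Sun1, a nuclear envelope protein that tethers telomeres in meiosis (log2 fold changes 0.61 in STOP and 0.51 in TKO), Sgo2a, which protects centromeric cohesin (0.95 in STOP and 0.77 in TKO), and Terb1, of the telomere anchor (2.50 in STOP and 2.27 in TKO). Of 21 recombination genes, 4 were higher and 2 lower in STOP, and 3 were higher and 1 lower in TKO. Hfm1, a helicase for crossing over, was higher in both (1.82 in STOP and 1.56 in TKO), while Tex15, a germ cell gene needed for double-strand break repair, averaged 65.2 CPM in STOP and 60.6 CPM in TKO against 111 CPM in WT (log2 -0.86 in STOP, edgeR adjusted p = 0.00154, and -0.91 in TKO, edgeR adjusted p = 0.00049). Of 12 regulators of meiotic entry, 3 were higher and 2 lower in STOP, and 2 and 2 in TKO. Dazl, which binds germ cell mRNAs, averaged 155 ± 11.8 CPM in STOP and 148 ± 33.4 CPM in TKO against 12.7 ± 1.84 CPM in WT. Stra8, the trigger of meiotic entry, had log2 fold changes of 1.92 in STOP and 1.05 in TKO, and Bmp4, which encodes a signal for germ cell fate, had -3.13 in STOP and -1.93 in TKO.

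Of 19 genes for PRC1.6 and its partners, 4 were lower in STOP, where 9.37% of all genes were (Pcgf6 -0.30, Max -0.43, Rnf2 -0.42 and Tfdp1 -0.33) and 1 in TKO, where 4.72% of all genes were (Pcgf6 -0.38, edgeR adjusted p = 0.0112), with 0 higher in either. Of 16 cohesin genes of dividing cells and their regulators, 4 were lower in STOP and 3 in TKO. Stag2, the body cell counterpart of Stag3, averaged 140 ± 11.6 CPM in STOP and 148 ± 24.5 CPM in TKO against 255 ± 6.08 CPM in WT, with log2 fold changes of -0.96 in STOP (edgeR adjusted p = 0.00753) and -0.82 in TKO (edgeR adjusted p = 0.00722). Smc1a, the counterpart of Smc1b, fell in STOP (-0.59 ± 0.16, edgeR adjusted p = 0.0339) and had -0.41 ± 0.14 in TKO (edgeR adjusted p = 0.0899). Stag2, Smc1a and Hdac8, the deacetylase that recycles Smc3, lie on the X chromosome, where the median log2 shift against WT was -0.53 and -0.48 in STOP libraries 1 and 2 over 388 genes, and -0.73, -0.52 and -0.10 in TKO libraries 1, 2 and 3 over 386 genes. The fold change of Hdac8 is not given here, and the part of this shift in the fold changes of the 3 genes was not tested. Rad21 and Stag1 were not called in either genotype, and Rad21l, a further meiotic kleisin, had at most 0.148 CPM in haploid cells.

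Embryos before implantation had the largest summed amounts of these RNAs, mostly Sycp3, and pIR embryos differed from pWT embryos in the level of 1 gene, Stag3 in blastocysts. The pWT columns of the embryo tables have another name (O48) and were assigned by elimination to pWT at each stage, so every embryo value labelled pWT rests on that. In pWT, Sycp3 had 357, 625, 1437 and 630 CPM in 2C embryos, 202, 466 and 295 in morulae and 223, 271, 398 and 196 at the blastocyst stage. Sycp2 had 75.2, 38.6, 119 and 31.9 CPM in 2C embryos, 0.0623, 2.33 and 2.49 in morulae and 0, 0.173, 0 and 0 at the blastocyst stage. Every morula lay below every 2C embryo for Sycp2, as for 20.2% of all genes. Rec8 had 0 counts in all 4 pWT and all 4 pIR 2C libraries, and 7.98, 0.777 and 5.37 CPM in pWT morulae. Hormad1 had 31.4, 62.8, 47.5 and 78.8 CPM in pWT 2C embryos, 18.45, 6.09 and 0.160 in morulae and 5.71, 4.16, 7.35 and 1.83 at the blastocyst stage. The mean of Stag3 ran upward instead, with 10.7, 8.54, 7.12 and 7.09 CPM in 2C embryos, 34.6, 8.94 and 21.2 in morulae and 49.8, 44.5, 31.2 and 56.1 at the blastocyst stage. Neighbouring stages overlapped, and neither step was called (edgeR adjusted p = 0.505 for morulae over 2C embryos and 0.184 for blastocysts over morulae).

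Of 8 genes tested in pWT morulae over 2C embryos, 1 was higher and 2 were lower, where 12.5% of all genes were higher and 20.1% lower. Rec8 was at least 26-fold higher in morulae, against a floor of 3 counts per library (edgeR adjusted p = 0.0207). Sycp2 fell by 5.92 ± 1.27 on the log2 scale (edgeR adjusted p = 0.00907) and Sycp3 by 1.86 ± 0.57 (edgeR adjusted p = 0.0358). Sycp1 differed by -3.22 ± 1.10 on the log2 scale (edgeR adjusted p = 0.0516) and Hormad1 by -3.37 ± 1.23 (edgeR adjusted p = 0.0642). Sycp2 kept its call without any 1 library. Sycp3 lost it without 2C 3 or 4 or any of the 3 morulae (0.054 to 0.13), and Rec8 lost it without any of the 3 morulae (0.053 to 0.0725). In pWT blastocysts over morulae edgeR called 0 of 7 tested members, where 25.2% of all genes were called, with 0 at an unadjusted p under 0.05, against 4704 of 12565 genes. DESeq2 was not run on the stages. Without pWT morula 3 Smc1b was called lower in blastocysts (log2 fold change -1.68 ± 0.49, edgeR adjusted p = 0.0346), and without pWT morula 1 the 1 member called was Sycp2, which was not tested with all libraries.

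Other meiotic genes moved both ways from 2C embryos to morulae. In pWT morulae over 2C embryos, 7 of 22 recombination genes were lower and 1 higher, 3 of 12 further synaptonemal complex and axis genes were lower and 2 higher, and 2 of 7 regulators of meiotic entry were lower and 0 higher, where 20.1% of all genes were lower and 12.5% higher. In pWT blastocysts over morulae the same lists had 6 of 15 lower and 0 higher, 4 of 11 lower and 0 higher, and 1 of 7 lower and 2 higher. Over all genes 11.8% were lower and 13.4% higher at that step. In pWT, Tex11, a crossover factor, averaged 300 CPM in 2C embryos and 0.0623 CPM in morulae, Msh4, which stabilises crossover intermediates, 178 CPM in 2C embryos and 2.75 CPM in morulae, and Dazl 204 CPM in 2C embryos and 3.60 CPM in morulae. All 3 were called lower in morulae. Of 16 cohesin genes of dividing cells and their regulators, 4 were lower and 1 higher in pWT morulae than in 2C embryos. The higher one was Stag2, with 45.02 CPM in 2C embryos and 507 CPM in morulae (log2 fold change 2.90 ± 0.69, edgeR adjusted p = 0.0142).

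In pIR 2C embryos Sycp1 had 71.6, 101, 163 and 125 CPM, against 48.5, 102, 12.2 and 51.1 CPM in pWT. Hormad1 had 87.6, 73.0, 72.8 and 118 CPM in pIR, against 31.4, 62.8, 47.5 and 78.8 CPM in pWT. Both ranges overlapped, and edgeR called 0 of 7 tested members at this stage, where 0% of all genes were called, with 0 at an unadjusted p under 0.05 (235 of 11076 genes) and 0 by DESeq2. In morulae Syce1 had 15.7, 21.1, 19.2 and 19.5 CPM in pIR, against 1.68, 20.7 and 2.25 CPM in pWT, so that 2 of 3 pWT libraries lay far below and 1 lay among the pIR libraries. Sycp3 had 694, 423, 563 and 326 CPM in pIR morulae, against 202, 466 and 295 in pWT. EdgeR called 0 of 8 members in morulae, where 0.136% of all genes were called, 1 had an unadjusted p under 0.05, as 1467 of 11773 genes did (Sycp3, log2 fold change 0.78 ± 0.31, edgeR adjusted p = 0.329), and DESeq2 called 0. In pIR morula 1 genes of chromosome 5, which carries Stag3, had a median log2 shift of -1.01 over 541 genes, against -0.16, -0.07 and -0.17 in pIR morulae 2, 3 and 4. Stag3 had 12.7 CPM in that library and 13.8, 17.2 and 20.4 CPM in the other pIR morulae.

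In blastocysts Stag3 had 20.3, 18.1, 20.1 and 29.7 CPM in pIR, against 49.8, 44.5, 31.2 and 56.1 CPM in pWT. All pIR libraries lay below all pWT libraries, as for 12.4% of all genes (log2 fold change -0.85 ± 0.24, edgeR adjusted p = 0.0376). It was the 1 member called of 7 tested, where 3.9% of all genes were called lower. The call was lost without any 1 of pWT 1, 2 and 4 and pIR 1, 2 and 3 (0.062 to 0.116), with morulae in the same fit (0.198) and with the trend on exon length removed (log2 fold change -0.67, 0.0798). Genes of 5000 exon bases or more took 26.5, 24.4, 23.3 and 27.0% of counts in pIR blastocysts, against 30.5, 29.5, 28.1 and 30.4% in pWT blastocysts, and Stag3 has 5.73 kb of exons. Syce1 had 5.18, 6.44, 5.63 and 2.91 CPM in pIR blastocysts, against 0, 0, 1.97 and 4.83 CPM in pWT, and was not called. Whether the pIR difference itself changed from morula to blastocyst was tested as an interaction, which called 0 members by edgeR, where 0% of all genes were called, with 1 at an unadjusted p under 0.05, as for 1101 of 13697 genes (Sycp3, edgeR adjusted p = 0.516). In blastocysts 1 of 12 recombination genes was called higher in pIR, where 6.74% of all genes were, Hsf2bp, which works with Brca2 in meiotic repair (log2 fold change 0.98 ± 0.23, edgeR adjusted p = 0.0203) and 1 of 16 cohesin genes of dividing cells was lower, where 3.9% were, Espl1, the separase that cuts cohesin (-0.85 ± 0.25, edgeR adjusted p = 0.0436).

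**Figure D2:**
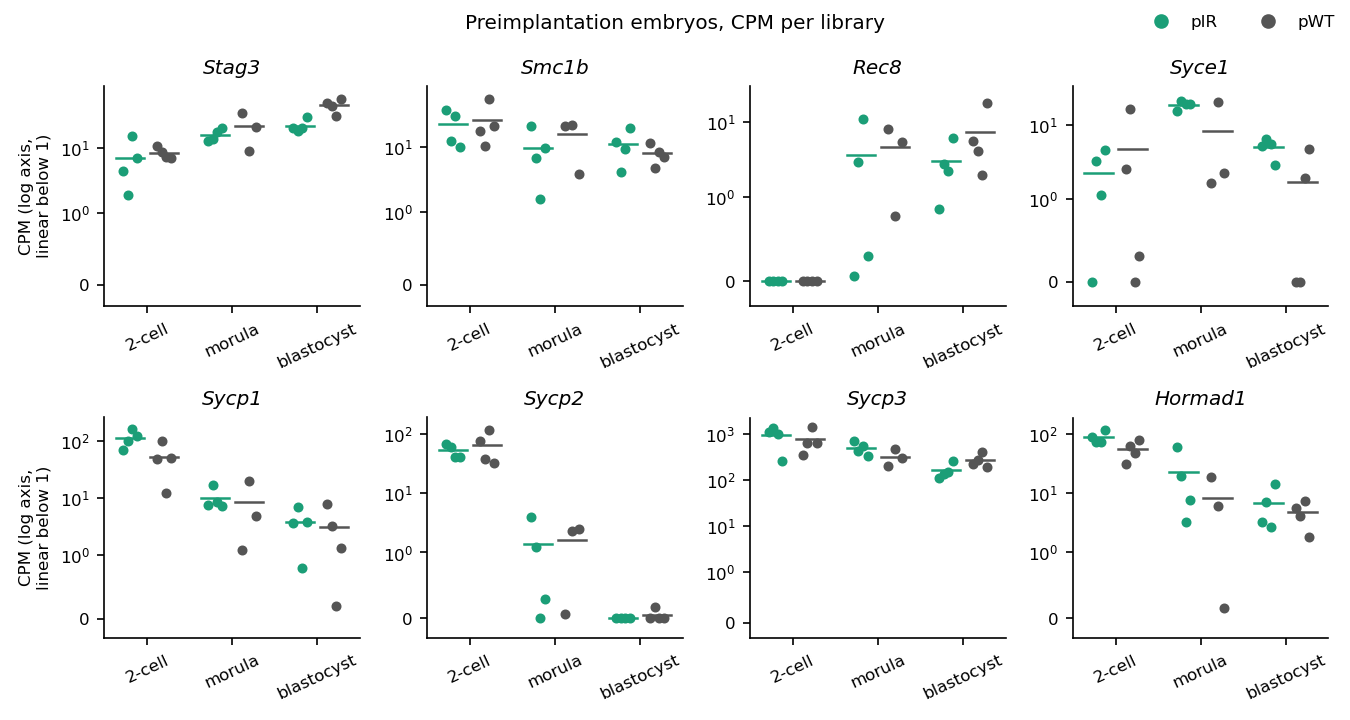
CPM of each gene in every embryo library (y axis, logarithmic above 1 and linear below) at the 2-cell, morula and blastocyst stages (x axis), with pIR left of pWT and a bar at each mean. Sycp2 drops to near 0 after the 2-cell stage, Rec8 is at 0 in all 2-cell libraries, and the Stag3 points of pIR blastocysts lie below those of pWT blastocysts.

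In fetuses at E18.5, pTKO tissues had more Stag3 and Syce1 RNA than pWT tissues of the same batch. Both pTKO libraries lay above both pWT libraries in all 5 tissues for these 2 of the 8 genes, and 51 of 20393 genes (0.25%) did so. The 5 tissues may come from the same fetuses, so they need not be separate observations. In brain Stag3 had 30.7 and 31.7 CPM in pTKO, against 19.6 and 23.1 CPM in pWT. Syce1, of the central element, had 6.03 and 5.56 CPM in pTKO brain, against 1.03 and 1.98 CPM in pWT brain. EdgeR called these 2 of 6 tested members higher in brain, where 0.689% of all genes were called higher (log2 fold changes 0.53 ± 0.12 for Stag3 and 1.89 ± 0.35 for Syce1, edgeR adjusted p = 0.0404 and 0.0201). Rec8 had 11.0 and 11.7 CPM in pTKO brain, against 6.81 and 6.58 CPM in pWT brain (0.74 ± 0.19, edgeR adjusted p = 0.0578). Sycp2 had 3.75 and 5.31 CPM in pTKO brain, against 2.80 and 2.06 CPM in pWT brain (0.90 ± 0.33, edgeR adjusted p = 0.185). Both pTKO brains lay above both pWT brains in these 4 genes, as for 26.6% of all genes, and Sycp1 and Sycp3 overlapped between the groups. Both calls were lost without pWT brain 1 (Stag3 0.217 and Syce1 0.055) and with all 5 tissues in one fit (both 1).

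Heart had the most members called in batch 1. Stag3 had 6.46 and 5.08 CPM in pTKO heart, against 1.19 and 0.841 CPM in pWT heart (log2 fold change 2.41 ± 0.38, edgeR adjusted p = 0.0226). Syce1 had 1.36 and 2.57 CPM in pTKO, against 0.334 and 0.368 CPM in pWT (2.39 ± 0.55, edgeR adjusted p = 0.0395). Sycp3 had 9.52 and 9.01 CPM in pTKO, against 3.43 and 2.79 CPM in pWT (1.49 ± 0.26, edgeR adjusted p = 0.0258). In these 3 genes both pTKO hearts lay above both pWT hearts, as for 39.9% of all genes. Sycp1 had 3.401 and 3.167 CPM in pTKO, against 0.143 and 0 CPM in pWT, which is 118 against 3 counts and a ratio of 43.8 (exact 95% interval 14.6 to 215 for counting error only; edgeR adjusted p = 0.0261). Sycp2 had 2.27 and 1.64 CPM in pTKO, against 0.0477 and 0 CPM in pWT, 70 against 1 count and a ratio of 77.9 (interval 13.5 to 3.12e+03; edgeR adjusted p = 0.0211). Hormad1 had 0.680 and 1.26 CPM in pTKO and 0 counts in both pWT hearts, at least 6.44-fold higher against a floor of 3 counts per library (edgeR adjusted p = 0.0312). Rec8 was the exception, with 4.53 and 5.57 CPM in pTKO, against 6.67 and 6.26 CPM in pWT (-0.43 ± 0.26, edgeR adjusted p = 0.256). In all, 6 of 7 tested members were called higher, where 15% of all genes were, and Smc1b had too few counts for a test. Without either pTKO heart 0 members were called, and without either pWT heart Syce1 and Hormad1 were lost (0.0512 to 0.106).

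The pWT hearts of batch 1 stood apart from other heart libraries, and this moved with those differences. Genes whose longest transcript is under 45% GC took 18.55 and 18.13% of counts in pTKO hearts, against 11.8 and 10.4% in the pWT hearts of batch 1, while the 8 hearts of batch 2 had 24.8 to 25.7%. With a trend on GC content removed from each library, Sycp3 in heart was left with 0.26 ± 0.24 on the log2 scale (edgeR adjusted p = 0.477) and Hormad1 lost its call (0.0569), and Stag3 (2.43), Syce1 (2.41), Sycp1 (4.16) and Sycp2 (4.82) kept theirs (0.0228, 0.0485, 0.0369 and 0.0298). Transcripts of Sycp1, Sycp2, Sycp3 and Hormad1 have 34.3 to 36.4% GC, Stag3 has 49.1%, Syce1 49.5% and Rec8 56.7%. The pWT hearts of batch 2 give a second view, across batches and with no test. Their Sycp1 levels of 3.07, 2.17, 2.602 and 3.42 CPM and Sycp2 levels of 1.33, 1.11, 1.88 and 1.77 CPM lay around those of pTKO hearts of batch 1, and their Sycp3 levels of 12.5, 17.1, 13.4 and 19.8 CPM lay above them. For Stag3, with 4.23, 3.01, 2.602 and 3.66 CPM, Syce1, with 0.637, 0.528, 0.111 and 0.183 CPM, and Hormad1, with 0.116, 0.0528, 0 and 0.061 CPM, the pWT hearts of both batches lay below both pTKO hearts. For Stag3 the pWT hearts of batch 1, at 0.841 and 1.19 CPM, also lay below those of batch 2, so its difference is smaller against batch 2.

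Body cell cohesin moved with the same libraries in heart. Of 16 genes tested, 8 were higher in pTKO heart, among them the loader Nipbl (log2 fold change 2.93), Smc3 (2.25) and Smc1a (0.93). Stag2, with 38.1% GC, had 124 and 124 CPM in pTKO hearts, against 27.0 and 6.26 CPM in pWT hearts. Recombination genes were higher in 7 of 15 cases, among them Prdm9, which places meiotic breaks (2.24 ± 0.34, edgeR adjusted p = 0.0215), and Mlh3, a crossover nuclease (1.203 ± 0.19, edgeR adjusted p = 0.0228), and 0 were lower. Of 4 further synaptonemal complex and axis genes 2 were higher, of 19 genes of PRC1.6 and partners 3 were higher and 1 lower, and of 8 regulators of meiotic entry 1 was higher. Over all genes in heart, 15% were called higher and 11.9% lower, which is near the shares in the last 2 of these lists. In brain, where 22.4 and 22.9% of counts in pTKO and 23.6 and 23.6% in pWT fell on genes under 45% GC, the lists of this paragraph gave 1 higher gene (Taf7l, a germ cell transcription factor, 2.00 ± 0.45) and 1 lower (Nipbl -0.40 ± 0.07). Over all genes in brain, 0.689% were called higher and 1.06% lower.

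**Figure D3:**
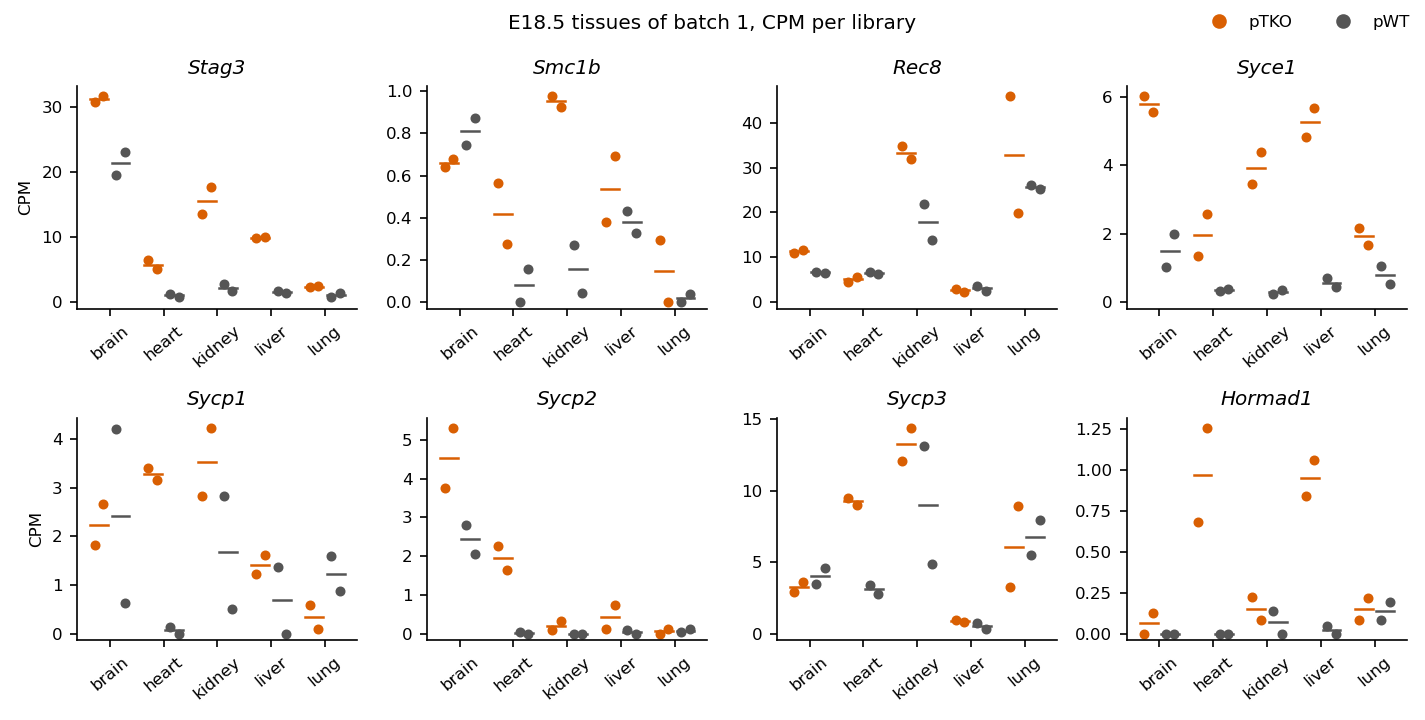
CPM of each gene (y axis, 1 panel a gene) in every E18.5 library of batch 1 by tissue (x axis), with pTKO left of pWT, a point per library and a bar at each mean. In the panels of Stag3 and Syce1 the pTKO points lie above the pWT points in all 5 tissues, whereas Rec8 and Sycp3 overlap or change order between tissues.

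Kidney and liver gave large and even differences in Stag3 and Syce1 that did not pass in the comparison of each tissue alone. In kidney Stag3 had 13.5 and 17.7 CPM in pTKO, against 2.70 and 1.71 CPM in pWT (log2 fold change 2.78 ± 0.34, edgeR adjusted p = 0.346). Syce1 had 3.46 and 4.39 CPM in pTKO kidney, against 0.225 and 0.342 CPM in pWT kidney (3.72 ± 0.44, edgeR adjusted p = 0.346). Rec8 had 34.9 and 31.9 CPM in pTKO kidney, against 21.9 and 13.7 CPM in pWT (0.86 ± 0.27, edgeR adjusted p = 0.346). EdgeR called 0 of 6 members in kidney, where 0% of all genes were called, with 4 at an unadjusted p under 0.05 (2374 of 16595 genes), and DESeq2 called 2. In liver Stag3 had 9.84 and 9.96 CPM in pTKO, against 1.77 and 1.43 CPM in pWT (2.50 ± 0.29, edgeR adjusted p = 0.621). Syce1 had 4.84 and 5.67 CPM in pTKO liver, against 0.689 and 0.450 CPM in pWT liver (3.07 ± 0.41, edgeR adjusted p = 0.621). The pWT livers of batch 2, set across batches with no test, had 3.72 to 6.03 CPM of Stag3 and 0.173 to 0.421 CPM of Syce1. For Stag3 these lay between the pWT and pTKO livers of batch 1, and for Syce1 they lay below both groups. Hormad1 had 0.841 and 1.06 CPM in pTKO liver, against 0.0431 and 0 CPM in pWT liver, 43 against 1 count and a ratio of 45.1 (exact 95% interval 7.67 to 1.82e+03; edgeR adjusted p = 0.621). EdgeR called 0 of 7 members in liver too, where 0% of all genes were called, with 3 at an unadjusted p under 0.05 (642 of 14947 genes) and 2 by DESeq2.

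In both tissues 1 pWT library stood apart. Stag2 had 154 and 160 CPM in pTKO kidneys, against 110 and 7.58 CPM in pWT kidneys, and 93.2 and 117 CPM in pTKO livers, against 70.4 and 2.25 CPM in pWT livers, and genes under 45% GC took 13.7% of counts in pWT kidney 2 and 11.0% in pWT liver 2. Without pWT kidney 2, the log2 fold change was 2.49 for Stag3 and 4.05 for Syce1. Without pWT liver 2, it was 2.38 for Stag3 and 2.82 for Syce1. These fits leave 1 pWT library. Leaving out the other pWT library keeps the one that stands apart as the control. The calls of such fits are not read as a result about these genes. With all 5 tissues in one fit the same 2 genes were called in kidney (2.71 ± 0.29 and 3.63 ± 0.50, edgeR adjusted p = 0.00393 and 0.0261), where 0.0319% of all genes were called higher, and in liver (2.44 ± 0.30 and 3.01 ± 0.46, edgeR adjusted p = 0.00711 and 0.0298), where 0.106% were. Over all alternatives the adjusted p of Stag3 and Syce1 ran up to 0.763 in kidney and 1 in liver.

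Lung had the smallest differences of the 2 genes among the 4 tissues other than brain. Stag3 had 2.25 and 2.48 CPM in pTKO lung, against 0.814 and 1.42 CPM in pWT (log2 fold change 1.14 ± 0.41, edgeR adjusted p = 0.804). Syce1 had 2.17 and 1.67 CPM in pTKO lung, against 1.06 and 0.537 CPM in pWT (1.33 ± 0.49, edgeR adjusted p = 0.804). Rec8, whose mean among the 5 pWT tissues of batch 1 was highest in lung, had 46.0 and 19.8 CPM in pTKO lung, against 26.2 and 25.3 CPM in pWT, with pTKO lung 1 the library that stands apart (Stag2 at 59.5 CPM, against 199 CPM in pTKO lung 2 and 198 and 241 CPM in pWT). EdgeR called 0 of 5 members in lung, where 0% of all genes were called, with 2 at an unadjusted p under 0.05 (488 of 16032 genes) and 0 by DESeq2. Leaving out pTKO lung 2 keeps only the library that stands apart. The calls of that fit are not read as a result about these genes. An interaction test of whether the pTKO difference varied between the 5 tissues called 0 members by edgeR, where 0.0106% of all genes were called, with 5 at an unadjusted p under 0.05, as for 3878 of 18806 genes (Stag3 edgeR adjusted p = 0.127, Syce1 and Rec8 0.201).

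Markers of germ cells and gonad were read in the same libraries, since these genes are known from germ cells. Ddx4, a helicase that marks germ cells, averaged 14.3 CPM in pTKO brain against 4.02 in pWT brain (log2 fold change 1.82, edgeR adjusted p = 0.000482) and 4.66 CPM in pTKO heart against 0.193 in pWT heart (4.43, edgeR adjusted p = 0.0257). The summed level of the 10 markers of oocytes that include Ddx4 was 23.1 to 24.3 CPM in pTKO brain against 14.1 to 16.7 in pWT brain, and 5.78 to 6.39 in pTKO heart against 0.946 to 1.14 in pWT heart. In brain Ddx4 rose by more than this sum did, so the other markers together were not higher. In heart Ddx4 made up most of the rise. The sum was 5.59 to 6.49 CPM in pTKO kidney against 1.07 to 2.34 in pWT kidney, 1.09 to 1.57 in pTKO liver against 0.491 to 0.560 in pWT liver, and 2.48 to 2.78 in pTKO lung against 1.38 to 1.91 in pWT lung. Sohlh1, a defining factor of oocytes, was at 0 in all 10 of these groups, and Figla, another, was at 0 in all except pTKO brain. The summed level of 6 markers of somatic gonad cells was 2.04 to 2.30 CPM in pTKO and 1.57 to 2.53 CPM in pWT kidney. The part of other cells in the Stag3 and Syce1 differences was not tested.

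The pIR fetuses of batch 2 gave 0 calls in either tissue by edgeR. In liver Syce1 had 0.749, 0.525, 2.49 and 3.57 CPM in pIR, against 0.341, 0.173, 0.421 and 0.335 CPM in pWT. All 4 pIR livers lay above all 4 pWT livers, as for 1.4% of all genes, with replicates 3 and 4 far above (log2 fold change 2.53 ± 0.60, edgeR adjusted p = 0.691). Stag3 had 4.95, 5.49, 9.89 and 14.6 CPM in pIR livers, against 6.03, 3.72, 4.88 and 3.97 CPM in pWT livers, again with pIR 3 and 4 above the rest (0.93 ± 0.30, edgeR adjusted p = 0.764). Of 5 members tested in liver 0 were called, where 0% of all genes were, 2 had an unadjusted p under 0.05 (813 of 14652 genes), and DESeq2 called 1, Syce1 (adjusted p = 0.0371, over alternatives that ran up to 1). In heart Stag3 had 2.39, 2.85, 4.42 and 7.90 CPM in pIR, against 4.23, 3.01, 2.602 and 3.66 CPM in pWT (0.40 ± 0.35, edgeR adjusted p = 0.85). Heart replicate 4 of pIR was also the highest for Syce1, at 2.66 CPM, Sycp2, at 4.38 CPM, and Hormad1, at 1.13 CPM, and the labels do not say whether it comes from the animal of liver replicate 4, where Hormad1 was 0.817 CPM. Of 5 members tested in heart 0 were called, where 0.0137% of all genes were, with 0 at an unadjusted p under 0.05 (863 of 14611 genes) and 0 by DESeq2. The interaction of heart and liver called 0 members, where 0.00622% of all genes were called, with 0 at an unadjusted p under 0.05 (848 of 16065 genes).

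**Figure D4:**
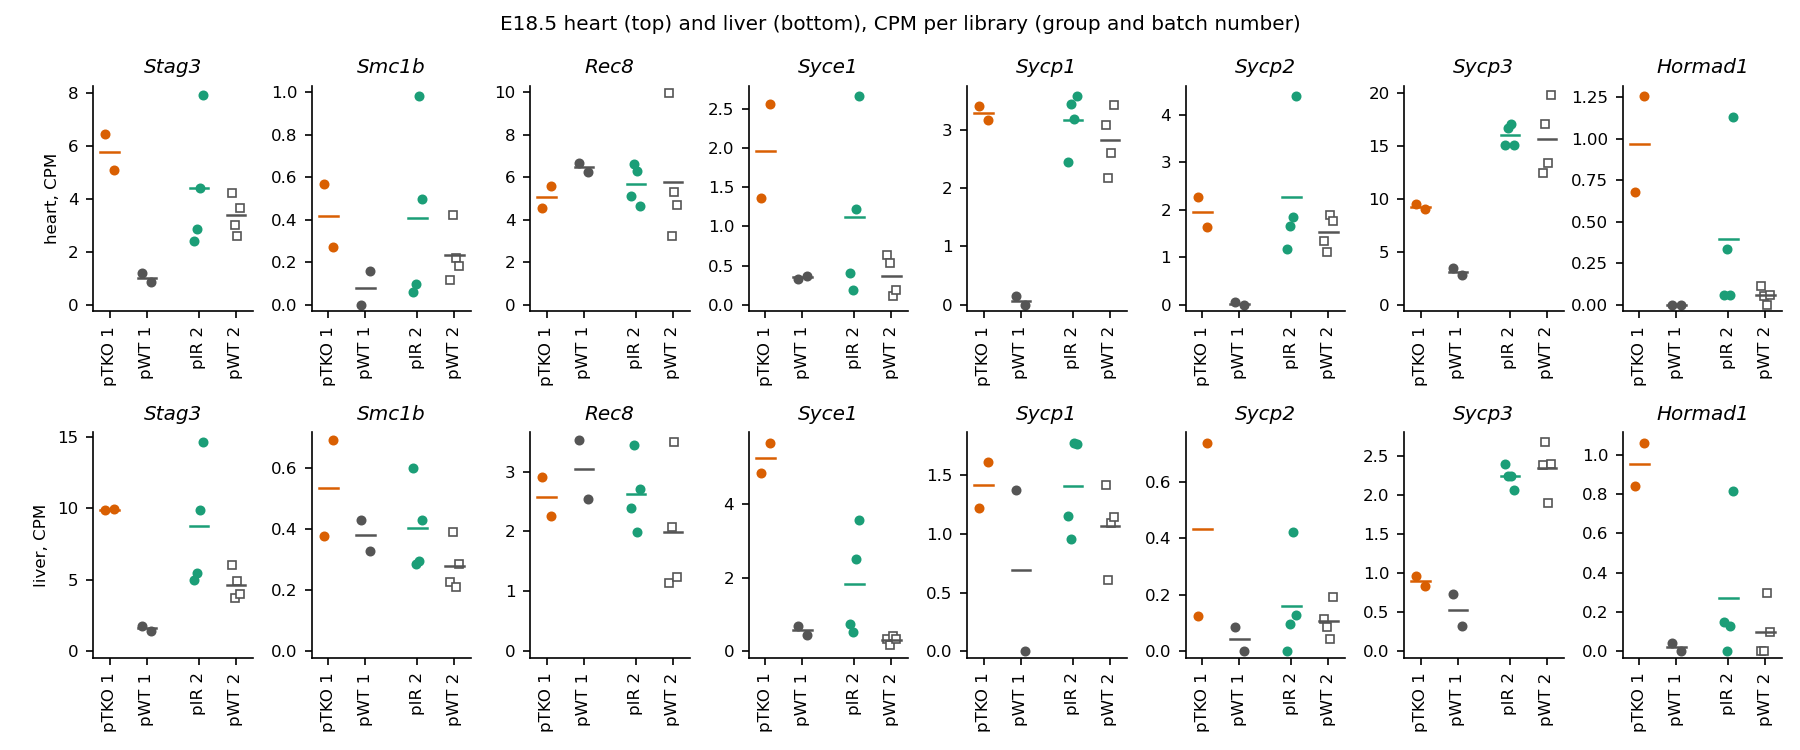
CPM of each gene in heart (top row) and liver (bottom row) at E18.5, with a point per library for pTKO and pWT of batch 1 and pIR and pWT of batch 2 (x axis; the number is the batch) and a bar at each mean. The pWT hearts of batch 1 lie below the pWT hearts of batch 2 for Stag3, Sycp1, Sycp2 and Sycp3, and pIR replicate 4 is the highest pIR heart for Stag3, Syce1, Sycp2 and Hormad1.

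At P1, pIR livers had less RNA of all 3 members that could be tested, where 39.2% of all genes were called in either direction and 2694 of 14588 were lower. Rec8 had 2.11 and 1.96 CPM in pIR liver, against 7.37, 4.99 and 6.95 CPM in pWT liver (log2 fold change -1.31 ± 0.29, edgeR adjusted p = 0.0034). Stag3 had 5.64 and 3.88 CPM in pIR liver, against 15.2, 10.1 and 11.8 CPM in pWT liver (-1.04 ± 0.24, edgeR adjusted p = 0.00458). Sycp3 had 0.844 and 1.23 CPM in pIR liver, against 3.68, 3.28 and 3.74 CPM in pWT liver (-1.43 ± 0.36, edgeR adjusted p = 0.00739), and lost its call without pIR liver 1 (0.0738). No range overlapped, and 51.7% of all genes likewise lay lower in every pIR liver than in any pWT liver. Of 5712 genes called in this comparison 3018 were higher, and with library totals alone as the scale, which moved the median of all genes by -0.37 on the log2 scale, 1678 of 7298 were, with the 3 members still lower (-1.38 for Stag3, -1.66 for Rec8 and -1.77 for Sycp3). In the same libraries 14 of 16 body cell cohesin genes were lower, among them Esco2, which acetylates cohesin in S phase (-1.75), Sgo1, the guardian of centromeric cohesin (-1.21), and Smc3 (-1.39), and so were 3 of 4 further synaptonemal complex and axis genes and 3 of 11 recombination genes. Haemoglobin genes took 3.39 and 2.27% of counts in pIR livers, against 8.85, 7.69 and 9.75% in pWT livers, and the summed level of 4 hepatocyte markers was 91249 to 103128 CPM in pIR and 35235 to 43671 CPM in pWT. Genes under 45% GC took 12.6 and 14.8% of counts in pIR livers and 16.5 to 16.7% in pWT livers, and with a GC trend removed all 3 members kept their calls (-1.15 for Stag3, -1.34 for Rec8 and -1.13 for Sycp3, edgeR adjusted p up to 0.0174). The part of blood cells or hepatocytes in these differences was not tested.

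The other P1 tissues gave 0 called members each by edgeR. Rec8 had 4.18 and 4.92 CPM in pIR heart, against 1.73, 1.86 and 2.31 CPM in pWT heart (log2 fold change 1.11 ± 0.30, edgeR adjusted p = 0.0832, and 0.0101 with all 4 tissues in one fit, over a range of 0.0101 to 0.388). In lung Rec8 had 8.33 and 5.70 CPM in pIR, against 4.37, 3.53 and 4.09 CPM in pWT (0.77 ± 0.22, edgeR adjusted p = 0.108). Neither range of Rec8 overlapped, and all pIR libraries lay above all pWT libraries for 29.4% of all genes in heart and 24.2% in lung. Sycp3 had 9.94 and 9.36 CPM in pIR heart, against 13.0, 11.4 and 14.1 CPM in pWT heart (-0.50 ± 0.19, edgeR adjusted p = 0.15), and Stag3 had 3.44 and 3.44 CPM in pIR kidney, against 5.92, 4.27 and 7.05 CPM in pWT kidney (-0.69 ± 0.27, edgeR adjusted p = 0.137). The share of all genes called was 2.32% in heart, 10.6% in kidney and 2.6% in lung. Of 4 members tested in each of these tissues, an unadjusted p under 0.05 was reached by 2 in heart (3733 of 15021 genes), 1 in kidney (4882 of 16234 genes) and 1 in lung (3198 of 16203 genes), and DESeq2 called 0 in each. The interaction over the 4 tissues called Rec8 (edgeR adjusted p = 0.000828) and Sycp3 (0.0344), where 25.3% of all genes were called, and Stag3 had 0.0677. Rec8 thus differed in its pIR change between tissues, being lower in liver and higher without a call in heart and lung. Without any 1 of the 20 libraries Rec8 kept that call (up to 0.00912), while Sycp3 ranged from 0.00372 to 0.146 and Stag3 from 0.0159 to 0.2.

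**Figure D5:**
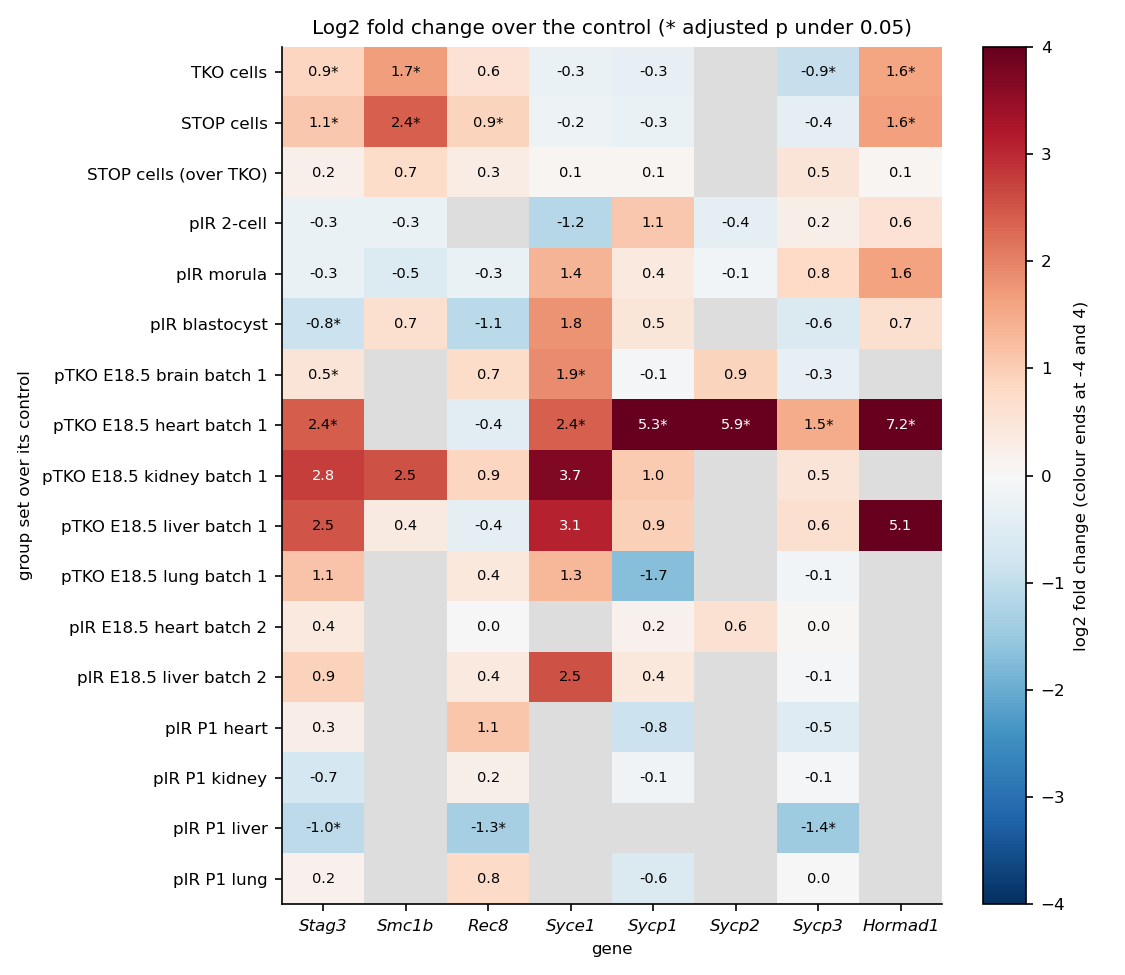
Fitted log2 fold change of each gene (columns) in each mutant or pIR, pTKO group over its control (rows), coloured from -4 to 4, with an asterisk where edgeR's adjusted p was under 0.05 and grey where the gene was not tested. Stag3 and Syce1 are positive in all 5 pTKO tissues and Stag3, Rec8 and Sycp3 are negative in pIR livers of P1; fitted values against groups with 0 to 3 counts, such as Hormad1 in pTKO heart, are not fold estimates.

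Across the 31 groups, pairs of members differed in how alike their levels were. On log2(mean CPM + 1), Pearson's r was 0.958 for Smc1b and Hormad1, 0.925 for Sycp1 and Hormad1, 0.863 for Smc1b and Sycp1 and 0.785 for Stag3 and Syce1, and -0.581 for Rec8 and Sycp2. These are descriptions over groups that share stages, tissues and batches. Of 19971 genes, the ones most like each member were Mtmr7 (0.899) and Dclre1c (0.893) for Stag3, Aurkc (0.973) and EU599041 (0.965) for Smc1b, Enkd1 (0.915) and Zfp429 (0.879) for Rec8, and Dnttip2 (0.861) and Nop14 (0.860) for Syce1. They were Esco1 (0.948) and Zfp655 (0.946) for Sycp1, Unc13c (0.975) and Gpr50 (0.949) for Sycp2, Zfp706 (0.975) and Rbx1 (0.966) for Sycp3 and Zp3 (0.979) and Gm364 (0.969) for Hormad1. Aurkc encodes a meiotic kinase and Zp3 a protein of the egg coat.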

How the data were processed

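Polyadenylated RNA was sequenced, per the labels. Per the submitters' processing notes, the tools were Trim Galore 0.6.6, HISAT2 2.1.0, featureCounts 1.6.4 and DESeq2, with the build mm10. The sources used here do not give strand or multimapping settings, or which libraries were made with the low-input kit. The deposited values are raw read counts per gene, in 10 tables of the authors. The 76 columns named by sample titles were matched by name, and 11 columns named O48 were given to pWT embryos by elimination.

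Counts were tested with edgeR 4.0.16 (TMM scaling, filterByExpr with a minimum count of 10, quasi-likelihood test) in R 4.3.3, in 17 comparisons of 2 groups, 2 of stages and 6 F tests, with p-values adjusted over all genes tested. DESeq2 1.42.0 was an alternative for the 17 comparisons of 2 groups, not for stages or F tests. Error of a fold change is the SE of edgeR's estimate, and intervals and floors (3 counts) cover counting error only. GC and length trends were removed over 25 bins of genes. Library totals ran from 6136789 to 37396693 counts, and genes near the floor have little precision. No 2 libraries agreed within sampling noise (lowest chi-square per degree of freedom 3.54).

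All 8 genes are named, with the cohesin genes Smc1a, Stag1, Stag2, Rad21 and Rad21l, the Dnmt genes, up to 4 called genes per list by smallest p and the 2 genes most alike to each member. The members and lists were chosen with earlier results of these data known. Ddx4 and quality measures were read beside results. The replicate numbers were not used as pairs in the main tests: no comparison with 3 or more pairs had every correlation above 0.1. With 2 pairs, every correlation was above 0.1 in STOP over WT (0.164 and 0.211), pTKO lung (0.209) and pIR lung at P1 (0.205 and 0.218).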

Additional observations from a re-analysis of the deposited data

Results flagged for a closer look

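In pWT 2C embryos Syce1 was 16.4 CPM in replicate 2 and at most 2.57 CPM in the other 3, a gap that stands out within its group. In pIR morulae Sycp1 was 17.4 CPM in replicate 2 and at most 8.69 CPM in the other 3. These were 2 of 63 combinations of gene and group examined, and chance gives about 1 in 20.

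At P1 the difference of pIR from pWT varied between heart, kidney, liver and lung for Rec8 (interaction, edgeR adjusted p = 0.000828) and for Sycp3 (edgeR adjusted p = 0.0344). Tested tissue by tissue, both were called in liver and not in the other 3, lower in pIR, and 25.3% of all genes gave such an interaction.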

How the results depend on the processing

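Under every alternative run, each called fold change of a member kept its direction. Counts of members called moved as follows. In blastocysts the 1 call became 0 with the length trend removed and 0 with morulae in the same fit. In pTKO brain 2 became 0 with all tissues in one fit. In pTKO kidney 0 became 2 with DESeq2 and 2 in the wider fit, and in pTKO liver likewise 2 and 2. In pIR liver of batch 2, 0 became 1 with DESeq2, and in pIR heart at P1, 0 became 1 in the wider fit. DESeq2 gave no adjusted p for the members in pTKO brain.

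With the replicate number as a block, 1 member was called in pTKO brain (Stag3 0.0529) and 1 in pWT morulae over 2C embryos (Rec8 0.186 and Sycp3 0.0789). The block also ended the calls of Syce1 (0.0728) and Hormad1 (0.0653) in pTKO heart and gave one for Rec8 in TKO cells (0.0342). Crossed numbers were tried after the data were seen, in the pTKO tissues where the correlation was under -0.1: 3034 genes were called in pTKO heart, 0 in kidney and 0 in liver. They were not tried in pIR heart at P1, where the correlations were -0.184 and -0.105.

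Leaving out 1 library gave 1 to 7 called members in TKO over WT, 1 to 2 in STOP over WT, 0 to 1 in pIR blastocysts, 0 to 3 in pTKO brain, 0 to 4 in heart, 0 to 6 in kidney, 0 to 5 in liver and 0 to 3 in lung. It gave 2 to 3 in pIR liver at P1, 1 to 3 in pWT morulae over 2C embryos, 0 to 1 in pWT blastocysts over morulae, and 1 to 4 for the interaction over P1 tissues. It left 0 called in the other comparisons of 2 groups. Where a group then held 1 library, it was assumed to vary like the others. The trends on GC and length, library totals as the scale and leaving libraries out of the stages and interaction were added after seeing the data.

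Counts over all genes moved by more than 1.5 times in places: 2177 became 1291 in TKO and 3463 became 8133 in STOP with the 2 groups fitted alone; 4042 became 2535 with the block and 2297 with the GC trend removed in pTKO heart; and 272 became 951 without a filter, 168 with the block, 118 and 172 with the length and GC trends removed and 0 in the wider fit in pTKO brain. DESeq2 called 300 genes in pTKO kidney, 57 in liver and 15 in lung, where edgeR called 0. In pIR embryos DESeq2 called 35 genes at 2C against 0, 403 in morulae against 16 and 2276 in blastocysts against 1282, and in morulae other settings gave 58 (no filter), 1 (block), 8 (length) and 218 (wider fit), with 584 in blastocysts in the wider fit. Kidney, liver and lung of pTKO had 6, 24 and 1 in the wider fit, and lung 9 with the block. Of batch 2, heart had 2, against 20 with DESeq2 and 0 with the block, and liver 0, against 11, 4 and 2 (no filter). At P1, heart had 349, against 1577 with DESeq2, 1107 without a filter, 56 with the block and 2629 in the wider fit; kidney 1727, against 2716 with DESeq2; and lung 421, against 1073, 708, 1209 and 148. Between stages of pWT, 4231 became 1998 (morulae over 2C) and 3169 became 2037 (blastocysts over morulae) with the block. Most tissue levels rest on few counts, which limits what differences can be seen.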
